A study of Homo sapiens with 30 samples.

Results

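The genes described here are 10 acetyltransferase genes other than KAT5, the gene that encodes TIP60: KAT2A, KAT2B, KAT6A, KAT6B, KAT7, KAT8, EP300, CREBBP, HAT1 and NAA10. They were chosen by name from the 60617 genes listed per library. The list was drawn up with earlier results of these data known, and the question asked of it is whether other acetyltransferases change when TIP60 or BRD8 is lost. RNA was sequenced from HCT116 and SW480, established human colorectal cancer cell lines, in 10 groups of 3 replicates (30 libraries). In each line, groups received a control siRNA (siControl), siBRD8-6 or siBRD8-36 against BRD8, or siTIP60-2 or siTIP60-11 against TIP60. Every group, controls included, was treated with lipid-delivered siRNA at 10 nM and harvested 48 h later. HCT116 grew in McCoy's 5A medium and SW480 in Leibovitz's L-15 medium. Nothing in the labels ties replicates to cultures grown apart; p-values therefore measure only the spread between these libraries, which may be technical.

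Histone acetyltransferases move an acetyl group from acetyl-coenzyme A to lysines of histones, which loosens chromatin and creates docking sites for bromodomain proteins such as BRD8, a subunit of the TIP60 complex. KAT2A (GCN5) and KAT2B (PCAF) are alternative catalytic subunits of the SAGA and ATAC coactivator complexes. KAT6A, KAT6B, KAT7 and KAT8 belong with TIP60 to the MYST family, EP300 and CREBBP are the paired coactivators p300 and CBP, and HAT1 acetylates newly made histone H4 before it is deposited on replicating DNA. NAA10 is the catalytic subunit of the NatA complex, whose main substrates are the amino termini of nascent proteins rather than histones.

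Promoter windows are shown for the 3 genes with the largest called changes, KAT2B, HAT1 and KAT2A, so that the paralogs KAT2A and KAT2B, which changed in opposite directions in HCT116, can be read side by side. The windows come from RefSeq (GRCh38.p14) and run 5′ to 3′ on the gene's strand from 250 bases before to 50 bases after the annotated start. Capitals mark every match, on either strand and with no overlap between motifs, to CCAAT (the box bound by NF-Y), CCGGAAG (an ETS motif), GGGGCGGGG (a GC box) and the E2F forms TTTCGCGC and TTTGGCGC. HAT1 is at chr2:171922211-171922510 (plus), KAT2A at chr17:42121318-42121617 (minus) and KAT2B at chr3:20040196-20040495 (plus).
HAT1: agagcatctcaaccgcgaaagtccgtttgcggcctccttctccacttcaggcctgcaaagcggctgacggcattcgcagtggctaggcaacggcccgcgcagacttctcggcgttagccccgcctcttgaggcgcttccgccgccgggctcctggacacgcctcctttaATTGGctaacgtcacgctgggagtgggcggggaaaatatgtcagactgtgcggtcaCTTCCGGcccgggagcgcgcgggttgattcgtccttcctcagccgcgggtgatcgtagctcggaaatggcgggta
KAT2A: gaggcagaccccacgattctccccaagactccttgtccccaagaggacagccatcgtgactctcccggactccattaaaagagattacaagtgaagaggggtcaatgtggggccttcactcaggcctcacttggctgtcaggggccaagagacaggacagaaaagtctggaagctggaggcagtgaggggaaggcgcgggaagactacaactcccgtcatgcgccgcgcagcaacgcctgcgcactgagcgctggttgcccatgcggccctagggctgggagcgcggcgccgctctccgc
KAT2B: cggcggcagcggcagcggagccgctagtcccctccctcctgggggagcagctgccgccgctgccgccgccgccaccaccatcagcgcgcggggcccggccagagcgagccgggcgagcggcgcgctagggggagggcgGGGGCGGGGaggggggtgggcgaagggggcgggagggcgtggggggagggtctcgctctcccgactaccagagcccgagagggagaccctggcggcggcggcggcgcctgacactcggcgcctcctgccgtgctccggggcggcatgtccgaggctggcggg
The KAT2B window was 80.3% G or C with 40 CpG dinucleotides, the KAT2A window 62.0% with 18 and the HAT1 window 63.3% with 33, beside medians of 58.7% and 14 over all 35116 windows. HAT1 held CCAAT and CCGGAAG, both as the reverse complement, motifs found in 34.6% and 10.3% of all windows. KAT2B held GGGGCGGGG, found in 15.7% of all windows, and the KAT2A window held none of the 4 motifs. No member window held an E2F form, which 1.15% of all windows do. Of the 10 members, 7 had a window (10 windows in all); KAT6A, KAT8 and NAA10 had no entry. CCGGAAG was also in KAT7, CCAAT in KAT6B, and GGGGCGGGG in KAT6B and CREBBP. A match describes letters in this window and is not evidence of binding.

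Sequencing depth was 13.4 to 18.6 M counts per library in HCT116 and 7.07 to 11.7 M in SW480 (M for mega), with 7.07 to 7.69 M in the SW480 controls and 8.21 M or more in the depleted SW480 libraries. HCT116 control replicate 2 stood apart from the other HCT116 controls in the balance of long and short genes (median log2 deviation of long minus short genes -0.40, against 0.05 and 0.15). In SW480, siBRD8-36 replicate 3 stood apart from the other siBRD8-36 libraries in the same measure (0.27, against -0.13 and -0.11). Member calls that were lost without either library are given without it too. Genes of the lists are given from the main fit alone, with no such check. Every member passed the filter on low counts in both lines, with 44 to 2010 counts per library. The depleted genes bore out the labels: BRD8 was at 14.2% to 24.5% of control CPM (counts scaled to library size) with its siRNAs, and KAT5 at 7.36% to 13.6% with the TIP60 siRNAs. KAT5 was also at 80.5% (HCT116) and 75.0% (SW480) of control with siBRD8-36, where KAT5 fell (edgeR quasi-likelihood test, adjusted p = 8.01e-05 and 0.000206), and at 110% and 105% with siBRD8-6 (adjusted p = 0.0373 and 0.489). Summed leukocyte markers were at most 3.28 CPM and endothelial markers at most 2.42 CPM in any library, while 6 of 7 epithelial markers in HCT116 and 7 of 7 in SW480 averaged above 1 CPM. The epithelial sum was 3410 to 4020 CPM in HCT116 controls and 5670 to 7570 CPM in depleted HCT116 libraries (SW480, 4120 to 4210 and 3900 to 5740 CPM). The sum of 6 fibroblast markers was 19.3 to 21.7 and 23.8 to 69.5 CPM in HCT116 and 8.07 to 8.86 and 5.29 to 17.2 CPM in SW480. The part of these marker shifts in the results was not tested, and in bulk RNA fewer cells of a kind and less RNA per cell cannot be told apart.

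All 10 are protein-coding, and positions are from GENCODE 29 on GRCh38, matched by Ensembl identifier. KAT2A (ENSG00000108773) lies at chr17:42113108-42121358 on the minus strand, and KAT2B (ENSG00000114166) at chr3:20040023-20154404 on the plus strand. KAT6A (ENSG00000083168) lies at chr8:41929479-42052026 (minus), KAT6B (ENSG00000156650) at chr10:74824927-75032624 (plus), KAT7 (ENSG00000136504) at chr17:49788555-49835030 (plus) and KAT8 (ENSG00000103510) at chr16:31115754-31131393 (plus). EP300 (ENSG00000100393) lies at chr22:41091786-41180079 (plus), CREBBP (ENSG00000005339) at chr16:3725054-3880726 (minus), HAT1 (ENSG00000128708) at chr2:171922448-171983682 (plus) and NAA10 (ENSG00000102030) at chrX:153929242-153935223 (minus). HAT1 lies wholly inside SLC25A12 on the opposite strand, but their annotated exons share 0 bases. KAT2A shares 10.7% of its exonic bases with AC099811.2, which lay at 0 CPM in 4 of 6 control libraries, and NAA10 shares 10.1% with ARHGAP4 on the same strand.

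In control cells the 10 genes spanned a wide range of abundance per length, given in TPM (transcript abundance scaled to length and library size). In HCT116 controls the highest TPM was that of NAA10, 109 ± 3.79 (SD, n = 3), followed by HAT1 at 89.5 ± 2.45. KAT7 at 39.1 ± 10.1 TPM and KAT8 at 38.3 ± 4.67 TPM overlapped, as did, in order, KAT6A, KAT2A, EP300 and CREBBP between 17.1 and 14.2 TPM. KAT6B at 6.81 ± 1.17 and KAT2B at 3.12 ± 0.552 TPM were the lowest. SW480 controls kept NAA10 (212 ± 9.49 TPM) and HAT1 (119 ± 2.78 TPM) at the top, with KAT8 next at 20.3 ± 2.63 and KAT2A at 14.6 ± 0.404 TPM. KAT7, EP300 and CREBBP followed between 10.5 and 7.02 TPM, with each overlapping the next. KAT6A (4.64 ± 0.276 TPM), KAT2B (3.34 ± 0.604) and KAT6B (2.45 ± 0.721) came last, the latter pair overlapping.

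Control SW480 and control HCT116 cells differed in 8 of 10 members by the log2 difference in CPM (edgeR quasi-likelihood test, Benjamini-Hochberg adjusted p under 0.05), where 78.5% of all 17411 genes tested differed, so the count is near the background. KAT7 (log2 difference -1.58 ± 0.0972 SE), KAT6A (-1.48 ± 0.128), KAT6B (-1.41 ± 0.119) and CREBBP (-1.06 ± 0.112) were lower in SW480, as were EP300 (-0.77) and KAT8 (-0.72). NAA10 (1.22 ± 0.0739) and HAT1 (0.68 ± 0.0565) were higher in SW480. A shift with gene length runs through this comparison: the median log2 difference was -0.53 for all genes of 5000 bases or more and 0.21 for those under 1500 bases. KAT6A, CREBBP, EP300 and KAT6B are among the long genes (6203 to 7915 bases) and NAA10 among the short ones (874.5 bases). KAT8 (1365.7 bases) is also among the short ones but was lower in SW480, against the median of its class. KAT7 (2907.2 bases), which had the largest difference, and HAT1 (1635.8 bases) are in neither class. With length modelled as an offset the 8 calls held and KAT2A was added (log2 difference 0.23, adjusted p = 0.00623, edgeR).

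**Figure D1:**
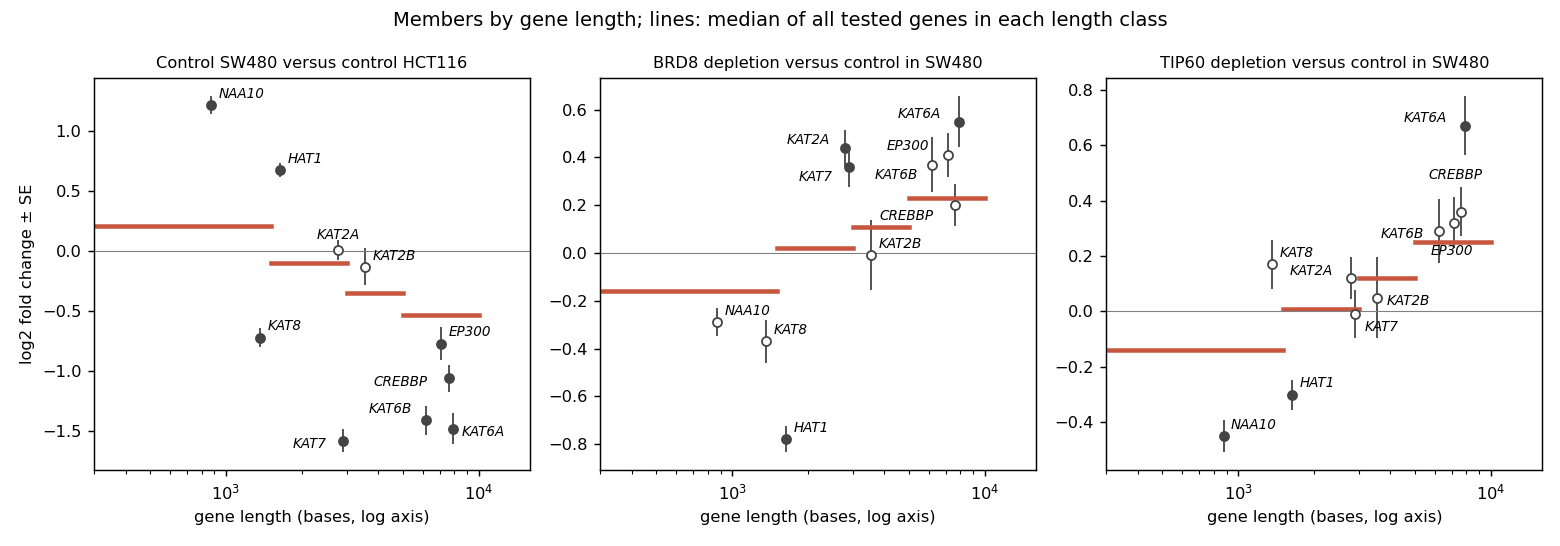
Log2 fold change ± SE of each member (points; filled where called) against gene length in bases on a log axis, with lines for the median of all tested genes in 4 length classes. In SW480 the classes run from -0.16 to 0.23 for BRD8 depletion and from -0.14 to 0.25 for TIP60 depletion; HAT1 in the BRD8 panel and KAT6A in the TIP60 panel lie furthest from the line of their class among the called members.

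A member was called in a depletion when both siRNAs moved it the same way and the larger of their p-values, adjusted over all genes tested, was under 0.05 (edgeR quasi-likelihood test, 15919 genes in HCT116 and 15277 in SW480). Log2 fold changes are of CPM and are the mean over the siRNAs, with the standard error (SE). BRD8 depletion changed 3 of 10 members in HCT116 (1 rose, 2 fell), against 24.4% of all genes tested. In SW480 it changed 4 of 10 (3 rose, 1 fell), against 26.9%. TIP60 depletion changed 3 of 10 in HCT116 (2 rose, 1 fell), against 27.9%, and 3 of 10 in SW480 (1 rose, 2 fell), against 23.6%. With so few members these shares are near the background in each comparison. Depleted and control libraries did not overlap in CPM for 3 of 10 members with BRD8 lost (29.2% of all genes) and 3 of 10 with TIP60 lost (33.5%) in HCT116, and for 3 of 10 (35.2%) and 5 of 10 (34.3%) in SW480. For single siRNAs in HCT116, 6 members passed with siBRD8-6 (50.5% of all genes), 7 with siBRD8-36 (58.2%), 7 with siTIP60-2 (49.8%) and 3 with siTIP60-11 (53.6%). In SW480 the counts were 8 (52.1%), 6 (56.8%), 6 (49.5%) and 4 (47.6%). The median log2 fold change over the 10 members was 0.005 (BRD8) and 0.035 (TIP60) in HCT116, and 0.28 and 0.15 in SW480, beside -0.02, -0.03, 0 and 0.01 over all genes tested. Of the 40 tests, 13 were called, 7 higher and 6 lower: 7 members changed in at least 1 comparison, none changed in all 4, and KAT6B, KAT8 and EP300 changed in none. The BRD8 and TIP60 comparisons of a line share their 3 control libraries, so their values are set side by side without a measure of their likeness.

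**Figure D2:**
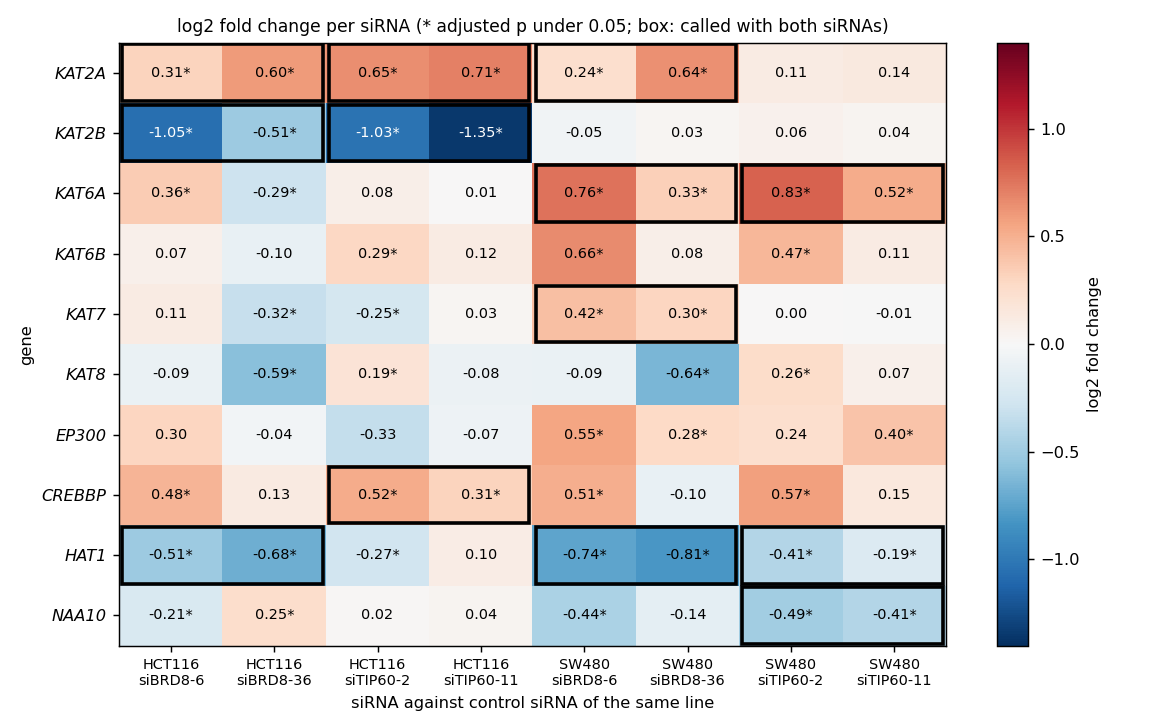
Log2 fold change in CPM for each member (vertical axis) with each siRNA against the control siRNA of its line (horizontal axis), with the values printed. Stars mark an adjusted p under 0.05 for that siRNA, and boxes mark the 13 calls that needed both siRNAs; KAT2B is lower with all 4 siRNAs in HCT116 and within 0.06 of 0 in SW480.

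**Figure D3:**
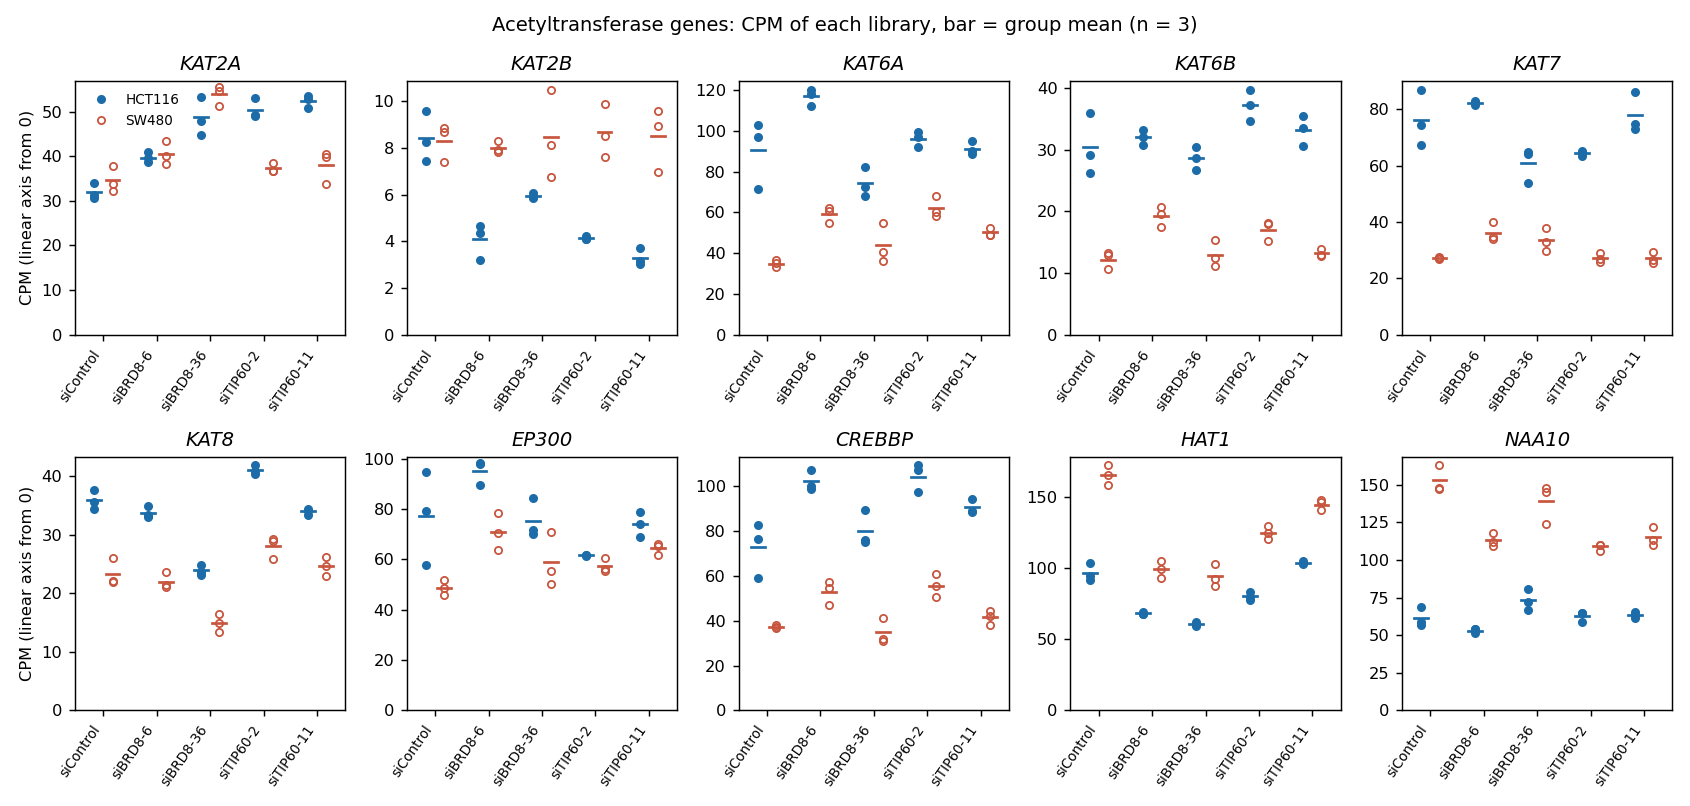
CPM of each of the 30 libraries (points; filled for HCT116, open for SW480) by siRNA for the 10 genes, with the mean of 3 libraries as a bar and linear axes that start at 0. HAT1 in every BRD8-depleted library is below every control library of its line.

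KAT2A, the GCN5 catalytic subunit, rose in HCT116 with either target lost and in SW480 with BRD8 lost. Its HCT116 control libraries had 31.3, 30.7 and 34.1 CPM. They rose to 39.6, 40.9 and 38.8 CPM with siBRD8-6 and 48.0, 44.8 and 53.2 CPM with siBRD8-36. TIP60 depletion gave 53.0, 49.2 and 48.9 CPM with siTIP60-2 and 52.9, 53.5 and 50.9 CPM with siTIP60-11. All 12 depleted HCT116 libraries were above all controls, and siBRD8-6 gave the smallest shift. The log2 fold change was 0.46 ± 0.0595 with BRD8 lost and 0.68 ± 0.0594 with TIP60 lost (edgeR, adjusted p = 0.0018 and 3.97e-07). In SW480 the controls had 32.3, 33.7 and 37.8 CPM, siBRD8-6 40.1, 38.3 and 43.5 CPM and siBRD8-36 55.6, 51.3 and 54.7 CPM, without overlap (log2 fold change 0.44 ± 0.0743, edgeR adjusted p = 0.0368). The SW480 libraries with TIP60 siRNAs, at 33.7 to 40.4 CPM, overlapped the controls (0.12 ± 0.0756, edgeR adjusted p = 0.49). The SW480 call with BRD8 was lost with DESeq2 (adjusted p = 0.0861), with the length offset (0.109), and without control replicate 1 (0.198), control replicate 2 (0.128), siBRD8-6 replicate 1 (0.0581) or siBRD8-6 replicate 3 (0.201).

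KAT2B, the paralog PCAF, fell in HCT116 with either target lost and overlapped its controls in SW480. HCT116 controls had 9.60, 7.45 and 8.24 CPM. These became 4.66, 4.38 and 3.22 CPM with siBRD8-6 and 5.86, 5.91 and 6.08 CPM with siBRD8-36. With siTIP60-2 they were 4.12, 4.09 and 4.22 CPM and with siTIP60-11 3.73, 3.15 and 3.04 CPM. Every depleted library lay below every control, and siTIP60-11 was the lowest group, at 39.2% of control. The log2 fold change was -0.78 ± 0.116 with BRD8 lost and -1.19 ± 0.119 with TIP60 lost (edgeR, adjusted p = 0.00781 and 1.13e-05). In SW480 the controls had 7.42, 8.86 and 8.67 CPM and the 12 depleted libraries 6.78 to 10.5 CPM, which overlap. The SW480 log2 fold changes were -0.01 ± 0.146 and 0.05 ± 0.146 (edgeR, adjusted p = 1 in both).

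The counts behind KAT2B are low, 44 to 176 per library over both lines, and its unit matters. On the TPM scale the fall with BRD8 lost was -0.27 in log2(TPM + 1) and did not pass limma's test (adjusted p = 0.869), and without control replicate 1 the edgeR adjusted p was 0.0624. The deposited KAT2B length, by which TPM divides the count, was 4410, 4011 and 3670 bases in the HCT116 controls but 3689, 2081 and 1598 bases with siBRD8-6. The fall with TIP60 lost passed under all 18 alternatives, TPM included. As a share of KAT2A and KAT2B transcripts in TPM, KAT2B was 15.7% ± 0.849 (SD, n = 3) in HCT116 controls. The share was 10.8% with siBRD8-6, 7.72% with siBRD8-36, 5.58% with siTIP60-2 and 3.77% with siTIP60-11. In SW480 it was 18.5% ± 2.41 in controls, 15.6% with siBRD8-6, 9.57% with siBRD8-36, 17.4% with siTIP60-2 and 15.5% with siTIP60-11.

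**Figure D4:**
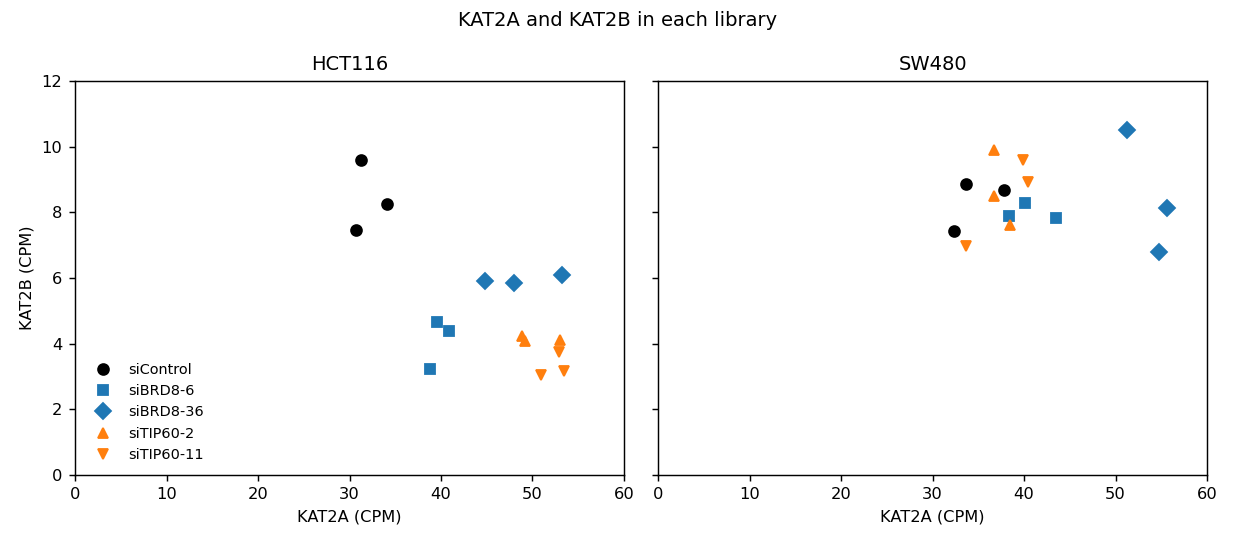
CPM of KAT2A (horizontal axis) and KAT2B (vertical axis) in each library of HCT116 (left) and SW480 (right), by siRNA. In HCT116 the 12 depleted libraries lie to the right of and below the 3 controls; in SW480 the KAT2B values overlap throughout.

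Of 20 other SAGA and ATAC subunits, 4 rose and 1 fell with BRD8 lost in HCT116, 3 rose and 3 fell with TIP60 lost in HCT116, 3 rose and 2 fell with BRD8 lost in SW480, and 2 rose and 2 fell with TIP60 lost in SW480. These counts, 4 to 6 of 20, are near the background of all genes. DR1, a subunit of ATAC and of the repressor NC2, was the gene of this list with the largest called change, and in CPM it fell in all 4 comparisons. Its HCT116 mean fell from 121 ± 6.02 CPM in controls to 58.9 ± 2.69 with siBRD8-6, 78.4 ± 2.93 with siBRD8-36, 78.1 ± 1.71 with siTIP60-2 and 88.4 ± 1.54 with siTIP60-11 (SD, n = 3). The log2 fold changes of DR1 were -0.84 and -0.55 in HCT116 and -0.61 and -0.40 in SW480, for BRD8 and TIP60 in turn (edgeR, adjusted p from 3.32e-08 to 0.000697). In TPM its SW480 means were 40.8 in controls, 30.6 with siBRD8-6, 42.7 with siBRD8-36, 38.3 with siTIP60-2 and 38.9 with siTIP60-11. ATXN7L3, an adaptor of the SAGA deubiquitinase, rose with BRD8 lost in both lines (0.47 and 0.51) and was at -0.03 and -0.02, not called, with TIP60 lost. KAT14, the second acetyltransferase of ATAC, rose with TIP60 lost in HCT116 (0.47) and with BRD8 lost in SW480 (0.46). TADA3, an adaptor of both complexes, fell with TIP60 lost in HCT116 (-0.64).

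HAT1, which acetylates newly made histone H4, fell with BRD8 lost in both lines and less with TIP60 lost. HCT116 controls had 92.0, 104 and 95.0 CPM, siBRD8-6 libraries 67.7, 69.5 and 67.7 CPM, and siBRD8-36 libraries 62.5, 59.9 and 59.8 CPM. In SW480 the controls had 166, 173 and 159 CPM, siBRD8-6 libraries 99.9, 105 and 93.1 CPM, and siBRD8-36 libraries 92.9, 103 and 87.8 CPM. The groups did not overlap in either line, with HCT116 at 70.3% of control under siBRD8-6 and 62.6% under siBRD8-36, and SW480 at 59.9% and 57.0%. The siBRD8-36 level was lower than that of siBRD8-6 in HCT116 (-0.17 on the log2 scale, edgeR adjusted p = 0.0111), and the SW480 difference of -0.07 did not pass (0.382). The log2 fold change was -0.59 ± 0.0445 in HCT116 and -0.78 ± 0.0545 in SW480 (edgeR, adjusted p = 5.13e-07 and 6.63e-10), and both calls passed under all 18 alternatives. With siTIP60-2 HCT116 had 78.1, 79.9 and 83.1 CPM and with siTIP60-11 103, 105 and 104 CPM. The TIP60 siRNAs thus gave HAT1 log2 fold changes of opposite sign in HCT116 (-0.27 and 0.10), and it was not called. In SW480 they gave 121, 125 and 130 CPM and 141, 147 and 148 CPM, all below the controls (log2 fold change -0.30 ± 0.0543, edgeR adjusted p = 0.0239). That call was lost on the TPM scale (-0.09 in log2(TPM + 1), limma adjusted p = 0.687) and without control replicate 1 (0.0632), control replicate 2 (0.131) or siTIP60-11 replicate 1 (0.104). The median of all genes in that comparison was itself 0.18 in log2(TPM + 1), against 0.01 in CPM. HAT1 was lower with BRD8 lost than with TIP60 lost, with a log2 difference of -0.50 ± 0.0371 in HCT116 and -0.48 ± 0.0452 in SW480 (edgeR, adjusted p = 8.28e-10 and 5.99e-10), with no overlap of libraries in either line.

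The list of 7 genes whose products partner HAT1 or carry new histones held 5 that fell and 0 that rose with BRD8 lost in HCT116 (median log2 fold change -0.60, against -0.02 over all genes) and 2 that fell and 0 that rose in SW480 (median -0.28). With TIP60 lost, 2 rose and 2 fell in each line. Of all genes tested, 24.4% and 26.9% were called with BRD8 lost and 27.9% and 23.6% with TIP60 lost, in HCT116 and SW480 in turn. The BRD8 siRNAs differed on this list: 6 of 7 genes were lower with siBRD8-36 than with siBRD8-6 in each line, with a median difference of -0.57 in HCT116 (56.7% of all genes called) and -0.38 in SW480 (52.8%). RBBP4, a histone-binding protein related to RBBP7, HAT1's partner, had the largest called change. Its level was 242 ± 7.13 CPM in HCT116 controls, 194 and 131 CPM with the BRD8 siRNAs and 87.6 and 100 CPM with the TIP60 siRNAs. The log2 fold change of RBBP4 was -0.60 with BRD8 and -1.37 with TIP60 lost in HCT116, and -0.28 (edgeR adjusted p = 0.0723, not called) and -1.45 in SW480. ASF1A, a chaperone of histones H3 and H4, fell with TIP60 lost in both lines (-0.69 and -0.84) and with BRD8 lost in SW480 (-0.36). Its paralog ASF1B rose with TIP60 lost (0.26 and 0.81), as did the chaperone NASP (0.46 and 0.42). In HCT116 with BRD8 lost the fallen genes were RBBP4, RBBP7 (-0.45), NASP (-0.45) and the chromatin assembly subunits CHAF1A (-0.81) and CHAF1B (-0.71). CHAF1A was at -0.21 with siBRD8-6 and -1.42 with siBRD8-36, CHAF1B at -0.28 and -1.13, and ASF1B, not called, at 0.18 and -1.56. In SW480 they were ASF1A and RBBP7 (-0.26), and neither fall was seen with both siRNAs in TPM. RBBP7 was at 205 TPM in SW480 controls, 219 with siBRD8-6 and 208 with siBRD8-36, and ASF1A at 34.8, 40.7 and 34.7 TPM. The median of all genes in that comparison was 0.23 in log2(TPM + 1).

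**Figure D5:**
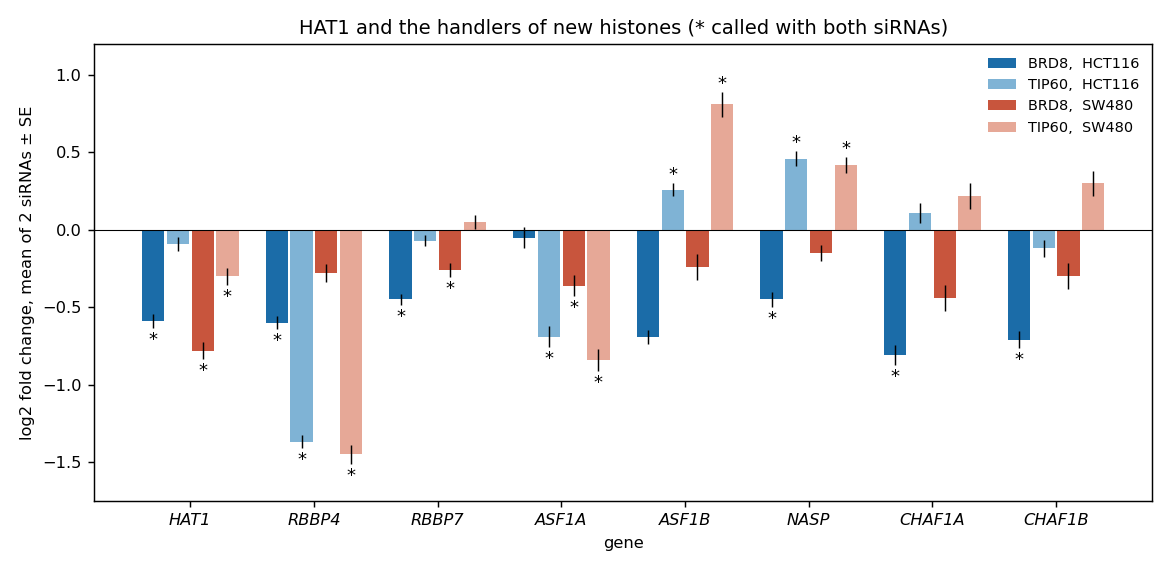
Mean log2 fold change in CPM over both siRNAs (bars, ± SE) of HAT1 and the 7 genes of its list in the 4 comparisons, with a star where called. HAT1 bars are negative in all 4 comparisons and starred in 3; ASF1B and NASP are starred above 0 with TIP60 lost in both lines.

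Among the MYST genes, KAT6A rose in SW480 and was not called in HCT116. SW480 controls had 33.1, 36.4 and 35.3 CPM, siTIP60-2 libraries 67.8, 58.0 and 60.1 CPM and siTIP60-11 libraries 49.1, 52.3 and 49.0 CPM. All 6 TIP60-depleted libraries were above the controls (log2 fold change 0.67 ± 0.106, edgeR adjusted p = 0.00255). With BRD8 lost the SW480 values were 54.6, 62.1 and 60.7 CPM for siBRD8-6 and 36.1, 40.5 and 55 CPM for siBRD8-36, and replicate 1 of siBRD8-36 overlapped the controls (0.55 ± 0.106, edgeR adjusted p = 0.0491). In HCT116 the controls ran from 71.4 to 103 CPM. siBRD8-6 gave 112 to 120 CPM and siBRD8-36 68.2 to 82.1 CPM, so these siRNAs moved KAT6A in opposite directions (0.36 and -0.29). The median of all genes of 5000 bases or more also rose in SW480, by 0.23 with BRD8 and 0.25 with TIP60 lost. Each SW480 control library had long genes lower relative to short ones (log2 difference -0.31 to -0.27) than any depleted library (-0.13 to 0.30). With length as an offset, KAT6A was at 0.40 with TIP60 lost (adjusted p = 0.00205) and at 0.29 with BRD8 lost (adjusted p = 0.307, edgeR). The BRD8 call was also lost under 4 of the other alternatives (adjusted p from 0.0516 to 0.107) and without any 1 of 7 libraries: control replicate 1 (0.176), 2 (0.0852) or 3 (0.111), siBRD8-6 replicate 1 (0.0573), 2 (0.0668) or 3 (0.084), or siBRD8-36 replicate 3 (0.393).

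KAT7 (HBO1), which works with BRPF or JADE scaffolds and acts at replication origins, rose with BRD8 lost in SW480. The controls had 27.3, 27.0 and 27.6 CPM, siBRD8-6 libraries 34.1, 34.7 and 40.0 CPM and siBRD8-36 libraries 33.0, 29.9 and 37.8 CPM, without overlap (log2 fold change 0.36 ± 0.084, edgeR adjusted p = 0.0185). With TIP60 lost KAT7 stood at 25.4 to 29.4 CPM in SW480, overlapping the controls (-0.01 ± 0.0861). In HCT116 it was 67.3 to 87.0 CPM in controls and 54.0 to 86.3 CPM in the depleted libraries, and was not called (-0.11 for either target). The SW480 call was lost with DESeq2 (adjusted p = 0.0537) and without control replicate 1 (0.0566), control replicate 2 (0.0647) or siBRD8-36 replicate 3 (0.141).

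KAT8 (MOF), the acetyltransferase of the MSL and NSL complexes, fell with siBRD8-36 and was not past the threshold with siBRD8-6. In HCT116 the controls had 37.6, 34.4 and 35.6 CPM, siBRD8-6 libraries 33.0, 34.9 and 33.4 CPM, and siBRD8-36 libraries 23.1, 23.7 and 24.8 CPM. SW480 controls had 26.0, 22.1 and 22.0 CPM, siBRD8-6 libraries 23.6, 21.5 and 21.0 CPM, and siBRD8-36 libraries 16.4, 13.4 and 15 CPM. In each line the siBRD8-36 libraries lay below all others of the line, while siBRD8-6 overlapped the controls. Against control, siBRD8-36 gave -0.59 ± 0.058 and -0.64 ± 0.106 (edgeR, adjusted p = 5.62e-08 and 9.96e-06) and siBRD8-6 gave -0.09 in both lines (adjusted p = 0.201 and 0.48), so KAT8 was not called for BRD8. siBRD8-36 and siBRD8-6 differed in KAT8 by -0.50 ± 0.058 and -0.55 ± 0.103 (edgeR, adjusted p = 5.58e-07 and 5.45e-05). siTIP60-2 gave a KAT8 log2 fold change of 0.19 in HCT116 and 0.26 in SW480, past the threshold for that siRNA alone, and siTIP60-11 -0.08 and 0.07.

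KAT6B, the paralog of KAT6A, passed the threshold only with siTIP60-2 in HCT116 (0.29) and with siBRD8-6 (0.66) and siTIP60-2 (0.47) in SW480. Its SW480 controls had 13.2, 12.9 and 10.6 CPM, siBRD8-6 libraries 17.4, 20.8 and 19.6 CPM, and siBRD8-36 libraries 11.1, 12.4 and 15.3 CPM, the last overlapping the controls. Over both siRNAs KAT6B was not called in any comparison (edgeR, adjusted p from 0.465 to 1), although without HCT116 control replicate 3 the TIP60 value in HCT116 was 0.34 and passed (0.0297). Of 9 BRPF, JADE and ING scaffold genes, 0 rose and 1 fell with BRD8 lost in HCT116, 1 rose and 3 fell with TIP60 lost in HCT116, 0 changed with BRD8 lost in SW480, and 1 rose and 1 fell with TIP60 lost in SW480. The shares of all genes called were 24.4%, 27.9%, 26.9% and 23.6% in that order. MEAF6, a small subunit shared by the complexes of TIP60, KAT6A, KAT6B and KAT7, fell with TIP60 lost in both lines (-0.85 ± 0.06 and -0.41 ± 0.0709) and with BRD8 lost in HCT116 (-0.33). JADE1 (-0.97) and JADE2 (-0.69), scaffolds of KAT7, fell with TIP60 lost in HCT116, and BRPF3, another KAT7 scaffold, rose with TIP60 lost in both lines (0.51 and 0.52). Of 10 MSL and NSL genes, 0 rose and 1 fell (BRD8) and 1 rose and 2 fell (TIP60) in HCT116, and 0 rose and 2 fell (BRD8) and 2 rose and 2 fell (TIP60) in SW480, beside the same shares of all genes. Among them HCFC1 rose (0.57 and 0.51) and MSL1 fell (-0.50 and -0.40) with TIP60 lost in both lines, while OGT, the O-GlcNAc transferase, fell with BRD8 lost in both (-0.52 and -0.57). KANSL2 fell in SW480 with either target lost (-0.65 and -0.32).

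CREBBP (CBP) rose with TIP60 lost in HCT116 and its paralog EP300 (p300) was called in no comparison. HCT116 control libraries had 76.3, 58.9 and 82.7 CPM of CREBBP, siTIP60-2 libraries 107, 97.2 and 109 CPM, and siTIP60-11 libraries 88.6, 88.4 and 94.2 CPM. The depleted libraries were all higher, and control replicate 2 was the lowest of the controls (log2 fold change 0.41 ± 0.0847, edgeR adjusted p = 0.0225). That control library had long genes low relative to short ones (log2 difference -0.40, against 0.05 and 0.15 in the others), and without it CREBBP was at 0.29 (edgeR, adjusted p = 0.0507). The call was also lost without siTIP60-11 replicate 3 (adjusted p = 0.0799) and on the TPM scale (limma, 0.725), and with length as an offset it held. siBRD8-6 and siTIP60-2 each gave CREBBP a log2 fold change past the threshold in both lines (0.48 to 0.57), and siBRD8-36 gave 0.13 and -0.10. With length as an offset CREBBP also passed for BRD8 in HCT116 (0.25, edgeR adjusted p = 0.0183).

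EP300 ranged widely in the HCT116 controls, at 79.3, 57.6 and 94.7 CPM, where siBRD8-6 gave 97.7, 89.6 and 98.1 CPM and siTIP60-2 61.6, 61.9 and 61.3 CPM. The groups overlapped (0.13 ± 0.114 and -0.20 ± 0.114, edgeR adjusted p = 1 in both), although without control replicate 2 the TIP60 value was -0.37 and passed (adjusted p = 0.035). In SW480 the controls had 45.7, 48.5 and 51.7 CPM, siBRD8-6 63.5, 70.4 and 78.4 CPM and siBRD8-36 50.2, 55.4 and 70.9 CPM. The log2 fold change was 0.41 ± 0.0913 with BRD8 lost, just outside the threshold (edgeR, adjusted p = 0.0538), and 0.32 ± 0.0918 with TIP60 lost (0.123). The first passed without siBRD8-6 replicate 1 (0.0446), siBRD8-6 replicate 3 (0.0484) or siBRD8-36 replicate 1 (0.00437), and with length as an offset it was at 0.18 (0.485). With no expression filter EP300 passed in SW480 for BRD8 (edgeR, adjusted p = 0.00211) and for TIP60 (0.0167), and for TIP60 it also passed with only control and target libraries (0.0108). The TIP60-depleted SW480 libraries, at 55.2 to 65.9 CPM, lay above the controls. EP300 lies among the long genes whose median rose in SW480.

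Of 11 partners of p300 and CBP, 2 or 3 rose in each comparison and at most 1 fell, so that 18.2% to 27.3% were called, near the 23.6% to 27.9% of all genes. CITED2, which binds both coactivators, rose from 30.6 ± 0.897 CPM in HCT116 controls to 103 and 67.7 CPM with the BRD8 siRNAs and 58.5 and 93.9 CPM with the TIP60 siRNAs. Its log2 fold change was 1.45 ± 0.0584 and 1.28 ± 0.0584 in HCT116 (edgeR, adjusted p = 2.28e-10 and 2.61e-09) and 0.89 ± 0.107 with TIP60 lost in SW480 (0.000211). With BRD8 lost in SW480 it was 23.3 CPM with siBRD8-6 and 11.2 CPM with siBRD8-36, against 10.3 CPM in controls, and was not called. CITED4 rose with BRD8 lost in SW480 (1.24), CARM1 with BRD8 lost in both lines (0.40 and 0.49), and NCOA1 with either target lost in SW480 (0.49 and 0.54).

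NAA10, the catalytic subunit of NatA, fell with TIP60 lost in SW480. The controls had 147, 163 and 148 CPM, siTIP60-2 libraries 110, 106 and 110 CPM, and siTIP60-11 libraries 113, 110 and 122 CPM, without overlap (log2 fold change -0.45 ± 0.0577, edgeR adjusted p = 3.22e-05). With BRD8 lost siBRD8-6 gave 109 to 118 CPM and siBRD8-36 124 to 148 CPM, the latter overlapping the controls, and NAA10 was not called (-0.29 ± 0.0575, edgeR adjusted p = 0.141). In HCT116 the controls had 56.7 to 69.0 CPM, and siBRD8-6 and siBRD8-36 moved NAA10 in opposite directions (-0.21 and 0.25). Genes under 1500 bases fell by a median of 0.14 in the same SW480 comparison, and with length as an offset the NAA10 log2 fold change was -0.30 (edgeR, adjusted p = 0.000301). ARHGAP4, whose exons share 10.1% of the NAA10 exonic bases, also fell there (-0.40, edgeR adjusted p = 0.0153), and any part of shared reads was not tested. Of 9 tested partners and relatives of NAA10, 0 changed with BRD8 lost in HCT116 (24.4% of all genes) or TIP60 lost in SW480 (23.6%), and 1 changed in each of the other comparisons (27.9% and 26.9%). NAA25 (0.48) rose with TIP60 lost in HCT116 and NAA40 (0.50), an acetyltransferase of histone amino termini, with BRD8 lost in SW480.

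The siRNAs against BRD8 were not alike on these genes: siBRD8-36 and siBRD8-6 differed in 9 of 10 members in HCT116, where 56.7% of all genes differed, and in 7 of 10 in SW480 (52.8%). In HCT116 KAT6A (-0.65 ± 0.102), KAT8 (-0.50), KAT7 (-0.43), CREBBP (-0.35), EP300 (-0.34) and HAT1 (-0.17) were lower with siBRD8-36, and KAT2B (0.54), NAA10 (0.46) and KAT2A (0.30) higher. In SW480 CREBBP (-0.61 ± 0.0955), KAT6B (-0.58), KAT8 (-0.55), KAT6A (-0.43) and EP300 (-0.27) were lower with siBRD8-36, and KAT2A (0.40) and NAA10 (0.30) higher. The EP300 difference was lost in HCT116 without siBRD8-6 replicate 1 (edgeR, adjusted p = 0.0923) or 3 (0.0955) or siBRD8-36 replicate 2 (0.125) or 3 (0.119). In SW480 it was lost without siBRD8-6 replicate 3 (0.147) or siBRD8-36 replicate 1 (0.151) or 2 (0.0962). siTIP60-11 and siTIP60-2 differed in 3 of 10 members in HCT116 (46.0% of all genes) and in 4 of 10 in SW480 (45.4%). In HCT116 these were HAT1, KAT8 (-0.28) and KAT7 (0.27, lost without siTIP60-11 replicate 3, adjusted p = 0.0927), and in SW480 HAT1, CREBBP (-0.42), KAT6B (-0.37) and KAT6A (-0.30). The SW480 KAT6A difference was lost without siTIP60-2 replicate 1 (0.128) or 3 (0.0524) or siTIP60-11 replicate 1 (0.0823) or 3 (0.0912), and that of KAT6B without siTIP60-2 replicate 1 (0.0662) or 3 (0.0539) or siTIP60-11 replicate 1 (0.0536). HAT1 was higher with siTIP60-11 in both lines (0.37 ± 0.0517 and 0.22 ± 0.0629, edgeR adjusted p = 9.36e-06 and 0.00631), although in log2(TPM + 1) the SW480 difference was 0.06 and did not pass (limma, adjusted p = 0.454). The median of all genes in that SW480 comparison was -0.13 in log2(TPM + 1). The KAT2B difference between the BRD8 siRNAs in HCT116 turned negative on the TPM scale (-0.26 in log2(TPM + 1), limma adjusted p = 0.193), and that of KAT2A was 0.14 and did not pass (0.229). Depletion differed too. BRD8 was at -0.55 in HCT116 and -0.22 in SW480 with siBRD8-36 against siBRD8-6 (edgeR, adjusted p = 0.000376 and 0.107), and KAT5 at -0.46 and -0.49. With siTIP60-11 against siTIP60-2, KAT5 was at 0.43 and 0.77 (edgeR, adjusted p = 0.00788 and 0.000464). The part of these differences in those of the members was not tested.

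Set directly against each other, BRD8 and TIP60 depletion differed in 6 of 10 members in HCT116, where 61.8% of all genes differed, and in 6 of 10 in SW480 (59.9%). Each target enters this test as the mean over its siRNAs, which need not agree. HAT1 and KAT8 were lower with BRD8 lost than with TIP60 lost in both lines (KAT8 -0.39 ± 0.0402 and -0.53 ± 0.0701, edgeR adjusted p = 7.76e-08 and 2.23e-07), while single libraries overlapped for KAT8. In HCT116 KAT8 averaged 33.8 CPM with siBRD8-6 and 23.9 with siBRD8-36, against 41.1 with siTIP60-2 and 34.0 with siTIP60-11. KAT2A was lower with BRD8 lost than with TIP60 lost in HCT116 (-0.22 ± 0.046) and higher in SW480 (0.32 ± 0.0564). Its SW480 means were 40.6 CPM with siBRD8-6 and 53.9 with siBRD8-36, against 37.3 with siTIP60-2 and 38.0 with siTIP60-11. KAT2B was higher with BRD8 lost in HCT116 (0.41 ± 0.105), as was EP300 (0.33), while KAT6B was lower (-0.22). The HCT116 means of KAT2B were 4.09 CPM with siBRD8-6 and 5.95 with siBRD8-36, against 4.14 with siTIP60-2 and 3.31 with siTIP60-11. KAT7 (0.37 ± 0.0645) and NAA10 (0.16) were higher and CREBBP (-0.16, edgeR adjusted p = 0.0429) lower with BRD8 lost in SW480. The CREBBP difference was lost without replicate 1 or 2 of any of the 4 siRNA groups (adjusted p from 0.0539 to 0.134), with the replicate block (0.0593), RLE factors (0.0598) and DESeq2 (0.0941), and on the TPM scale (limma, 0.41), in all under 13 of 20 alternatives. Without siBRD8-36 replicate 3, KAT6A passed there too (-0.23, adjusted p = 0.00066).

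The response differed between the lines in 5 of 10 members for BRD8, where 34.4% of all 17411 genes differed, and in 5 of 10 for TIP60 (31.2%). In this test of the difference itself, the response in SW480 minus that in HCT116, KAT2B was the largest for either target (0.83 ± 0.189 and 1.28 ± 0.192, edgeR adjusted p = 0.000695 and 2.72e-06). HAT1 did not pass for either target (-0.12 and -0.17, edgeR adjusted p = 0.202 and 0.0525), but passed under 6 (BRD8) and 13 (TIP60) of 26 alternatives, with adjusted p as low as 0.00545 and 0.00389, both without SW480 control replicate 3. EP300 passed for BRD8 without HCT116 control replicate 2 (0.52, adjusted p = 0.00224). Depletion itself was weaker in SW480. The same test gave 0.48 for BRD8 with the BRD8 siRNAs and 0.33 for KAT5 with the TIP60 siRNAs (edgeR, adjusted p = 0.00086 and 0.049). Line, medium, sequencing depth and degree of depletion cannot be told apart in these differences.

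Across the 30 libraries, with each gene's log2 CPM centred within its line, the genes most like KAT2B were GSDME (Pearson r = 0.812), MALT1 (0.798) and PLEKHO1 (0.794). Those most like HAT1 were RPL15 (0.948), TPT1 (0.93) and SRSF6 (0.927), and those most like KAT2A were SEPTIN9 (0.907), HCN2 (0.903) and CCDC86 (0.902), each of 11191 genes compared. Among the members themselves the strongest correlation was negative, that of KAT6A with NAA10 (-0.91), a long and a short gene, and CREBBP with NAA10 was at -0.71. The highest positive ones were those of KAT6A with CREBBP (0.82), KAT6B with CREBBP (0.80) and KAT6A with KAT6B (0.75), all long genes. These correlations describe libraries that share control groups, depth and the length shift, and carry no test.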

How the data were processed

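Total RNA (100 ng) was made into directional libraries and read as single ends, per the labels' protocols. The submitters' processing notes name Trimmomatic 0.33, STAR 2.7.3a, RSEM 1.3.3 and hg38; no source used here states the annotation release or strand setting. Per the file headers, each library's table as deposited gives RSEM expected counts, TPM and FPKM by gene. Rounding made the expected counts whole (9.13% to 13.1% of genes had a non-whole value). TPM gave levels, and FPKM was not used. Members were matched by symbol and Ensembl identifier.

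edgeR 4.0.16 (R 4.3.3; TMM, filterByExpr, robust quasi-likelihood test) was fitted per line over 5 groups, or over both lines for differences between lines, with Benjamini-Hochberg adjustment over all genes tested. A target call needed both siRNAs in the same direction and the larger p, adjusted, under 0.05. Alternatives were DESeq2 1.42.0, RLE factors, limma 3.58.1 on log2(TPM + 1) and log2(TPM + 0.1), no filter, a filter of 1 CPM in 3 libraries, only control and target libraries, a replicate block, and leaving out each library; a length trend as offset was added after the data were seen. No pair of replicates of a group agreed within sampling noise (chi-square per gene 1.47 to 21.3). The edgeR script was tested on simulated data.

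The members and the 8 gene lists (94 genes) were chosen with earlier results of these data known. Named are all members, the depleted genes, up to 4 called genes per list with the largest change, the remaining called genes of the HAT1 list (chosen after their values were seen), the genes overlapping members, and the 3 genes of mean CPM at least 5 most correlated with each of the 3 most changed members. The lists of further acetyltransferases and deacetylases are in the closing section.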

Additional observations from a re-analysis of the deposited data

Results flagged for a closer look

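The following member responses differed between the lines by a test of the difference itself (SW480 response minus HCT116 response, log2 scale, edgeR quasi-likelihood test over both lines). For BRD8, KAT2B differed by 0.83 (HCT116 -0.78, SW480 -0.01; adjusted p = 0.000695), KAT6A by 0.58 (0.03 and 0.55; 0.00427), KAT7 by 0.53 (-0.11 and 0.36; 0.000507), KAT6B by 0.45 (-0.01 and 0.37; 0.0146) and NAA10 by -0.24 (0.02 and -0.29; 0.036). For TIP60, KAT2B differed by 1.28 (HCT116 -1.19, SW480 0.05; adjusted p = 2.72e-06), KAT6A by 0.67 (0.04 and 0.67; 0.00136), EP300 by 0.56 (-0.20 and 0.32; 0.012), KAT2A by -0.52 (0.68 and 0.12; 8.31e-05) and NAA10 by -0.44 (0.03 and -0.45; 0.000212).

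The median of all genes in these comparisons was 0.10 for BRD8 and 0.06 for TIP60, and 0.25 and 0.23 for genes of 5000 bases or more. With length as an offset KAT2B was at 0.66 (BRD8) and 1.13 (TIP60), KAT6A at 0.36 and 0.44, EP300 at 0.34 (TIP60) and KAT7 at 0.39 (BRD8), all past the threshold, and KAT6B at 0.23 (edgeR adjusted p = 0.138) was not. On the TPM scale the BRD8 differences of KAT2B (0.25, limma adjusted p = 0.472) and NAA10 (-0.04, 0.765) did not pass. For BRD8 the median of all genes was 0.20 in log2(TPM + 1). KAT6B was also lost with DESeq2 (0.0588) and without HCT116 control replicate 3 (adjusted p = 0.106), SW480 control replicate 3 (0.301) or SW480 siBRD8-36 replicate 3 (0.0552). NAA10 for BRD8 was lost without HCT116 control replicate 1 (0.0672) or 3 (0.0938), SW480 control replicate 2 (0.108) or SW480 siBRD8-6 replicate 1 (0.0552), and EP300 for TIP60 with no expression filter (0.058) and without HCT116 control replicate 3 (0.0669) or SW480 control replicate 1 (0.0511).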

How the results depend on the processing

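Of the 13 member calls against control, 7 held under all alternatives run (KAT2A and HAT1 for BRD8 in HCT116, KAT2A and KAT2B for TIP60 in HCT116, HAT1 for BRD8 in SW480, and KAT6A and NAA10 for TIP60 in SW480), 6 were lost under at least 1 and 0 reversed. On the TPM scale (pseudocounts 1 and 0.1, limma) the genes called in HCT116 numbered 2375 and 2332 for BRD8 (3891 with edgeR) and 2764 and 2738 for TIP60 (4437). The median of all genes moved most for BRD8 in SW480, to 0.27 with log2(TPM + 0.1). In HCT116 it lay between -0.03 and 0.01 on the TPM scale for either target. Called members for BRD8 in SW480 (4) were 2 with DESeq2 and 2 with the length offset; for the difference between siTIP60-11 and siTIP60-2, 5 in HCT116 with the length offset (3) and 2 in SW480 with log2(TPM + 0.1) (4); and for the BRD8 response between lines, 3 with either TPM setting (5). The KAT2B difference between BRD8 siRNAs in HCT116 (0.54) reversed to -0.26 and -0.34 in TPM. The cause was not tested.

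Leaving out 1 library at a time gave these ranges of called genes and members. Against control: BRD8 in HCT116 3389 to 4082 genes and 2 to 3 members, TIP60 in HCT116 3897 to 4604 genes and 2 to 4 members, BRD8 in SW480 3439 to 3979 genes and 1 to 5 members, TIP60 in SW480 2989 to 3455 genes and 2 to 3 members. Between targets and siRNAs: BRD8 against TIP60 in HCT116 9424 to 9614 genes and 6 to 6 members, siBRD8-36 against siBRD8-6 in HCT116 8296 to 8592 genes and 8 to 9 members, siTIP60-11 against siTIP60-2 in HCT116 6373 to 6613 genes and 2 to 3 members, BRD8 against TIP60 in SW480 8761 to 9181 genes and 5 to 7 members, siBRD8-36 against siBRD8-6 in SW480 7344 to 7992 genes and 6 to 8 members, siTIP60-11 against siTIP60-2 in SW480 6018 to 6578 genes and 2 to 4 members. Between lines: BRD8 response between lines 5250 to 6351 genes and 3 to 6 members, TIP60 response between lines 4682 to 5911 genes and 4 to 6 members, controls between lines 13284 to 13637 genes and 8 to 8 members.

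Replicate numbers were compared between groups on log2 CPM after each group's mean was subtracted. Same-numbered libraries then correlated with r from -0.0544 to 0.183 in HCT116 (13 of 15 libraries best with their own number) and -0.168 to 0.197 in SW480 (2 of 15). The median r was 0.0584 for same and -0.033 for other numbers in HCT116, and -0.0026 and -0.00412 in SW480. Not every pair was above 0.1 in either line and the labels tie no number to a shared source, so the numbers were not taken as pairing; the HCT116 count is a hint from the data that same-numbered libraries share something. With the replicate block the genes called for BRD8 and TIP60 numbered 4068 and 4669 in HCT116 and 3939 and 3460 in SW480, and the members called 3, 3, 4 and 3; KAT6A for BRD8 in SW480 was lost (adjusted p = 0.0535) and EP300 passed (0.0266), and the CREBBP difference between BRD8 and TIP60 in SW480 was lost (0.0593). CREBBP between the TIP60 siRNAs in HCT116 (0.0347) and the HAT1 response to TIP60 between lines (0.0424) passed. Expected counts as low as 44 limit KAT2B, and SW480 depth, 7.07 to 11.7 M counts, limits small differences.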

Other observations

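Of 10 further acetyltransferase genes, 3 rose and 0 fell with BRD8 lost in HCT116, 3 rose and 2 fell with TIP60 lost in HCT116, 3 rose and 1 fell with BRD8 lost in SW480, and 1 rose and 1 fell with TIP60 lost in SW480. The shares of all genes called were 24.4%, 27.9%, 26.9% and 23.6% in that order. NAT10, which acetylates cytidines of RNA, rose from 124 ± 9.18 CPM in HCT116 controls to 158 and 156 CPM with the BRD8 siRNAs and 227 and 221 CPM with the TIP60 siRNAs (SD, n = 3). Its log2 fold change was 0.34 and 0.85 in HCT116 and 0.53 with TIP60 lost in SW480 (edgeR, adjusted p from 5.2e-10 to 0.000137); with BRD8 lost in SW480 it was 0.25 and was not called (0.217). CLOCK, the circadian factor, rose with BRD8 lost in both lines (0.90 and 0.58). ESCO2, which acetylates cohesin in S phase, fell with BRD8 lost in SW480 (-1.26), to 68.0% of control with siBRD8-6 and 25.9% with siBRD8-36. In HCT116 it was at 98.1% and 23.8% and was not called. ATAT1, the tubulin acetyltransferase, fell with TIP60 lost in HCT116 (-0.53).

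Of 18 deacetylase genes, 4 rose and 2 fell with BRD8 lost in HCT116, 3 rose and 1 fell with TIP60 lost in HCT116, 4 rose and 0 fell with BRD8 lost in SW480, and 2 rose and 1 fell with TIP60 lost in SW480. These shares, 16.7% to 33.3%, stand beside 23.6% to 27.9% of all genes. SIRT4, a mitochondrial sirtuin, rose with BRD8 lost in both lines (0.99 ± 0.17 and 0.98 ± 0.293), and SIRT5, the mitochondrial desuccinylase, with TIP60 lost in both (0.48 ± 0.073 and 0.64 ± 0.111). SIRT4 lay near the floor, at 23 to 27 counts per library in HCT116 controls and 4 to 12 in SW480 controls (1.22 ± 0.55 CPM, SD), which limits its fold changes. HDAC9 rose with TIP60 lost in HCT116 (0.99 ± 0.142) and HDAC11 with BRD8 lost in SW480 (0.76 ± 0.128).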
